A study of Mus musculus with 2 samples.

Results

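The genes described are 9 adhesion and paranode genes, chosen by name and taken whatever their values: Nfasc, Cntn1, Cntn2, Cadm1, Cadm4, Jam3, Epb41l3, Ncam1 and Ank2. All 9 were found among the 31053 genes of the tables. They were followed through the 3 stages of the oligodendrocyte lineage, namely oligodendrocyte precursor cells (OPCs), newly formed oligodendrocytes (NFOs) and oligodendrocytes, in uninjured optic nerve and in the injury site after optic nerve crush (ONC). The scRNA-seq data are 2 libraries, 1 from 5 uninjured nerves (called control in the plots) and 1 from the crush site of 5 nerves taken 2 weeks after ONC. All animals were wildtype mice of the 129S1/SvlmJ strain, both sexes pooled, and by the study's account 10 weeks old, the crush having been made at 8 weeks. In the labels both samples carry P56 and a 2-week crush treatment, and the uninjured sample was recognised from its title. With 1 library of pooled nerves per condition, no difference between conditions has a replicate check, no p-value was computed, and a difference between the libraries cannot be told apart from a difference between conditions.

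The uninjured library held 58 OPC, 44 NFO and 857 oligodendrocyte barcodes, and the injured library 17, 100 and 293. Levels are CPM, a gene's share of the UMIs (molecules counted after collapsing PCR copies) of its group, scaled to 1000000, with exact 95% intervals that cover counting error only. The summed depth ranged from 94130 UMIs in uninjured NFOs to 4149375 in uninjured oligodendrocytes. Median depth per oligodendrocyte barcode was 3060 UMIs without injury and 1268 after it. Malat1, a nuclear RNA, fell short of 0.5% of a barcode's UMIs in 5.60% of oligodendrocyte barcodes without injury but in 45.4% after it, and in 28 of 44 and 77 of 100 NFO barcodes. No barcode sequence was shared between the libraries. The oligodendrocyte label was borne out by its markers, since 10 of 10 were found in at least 25% of oligodendrocyte barcodes of each library, and OPCs had 8 of 8 of theirs. NFO barcodes had the highest summed level of the NFO marker list (4993 CPM without injury and 7591 after it), but they also held the OPC list at 4685 and 3351 CPM, against 10060 and 9082 in OPCs. Gpr17 is on both lists. Rras2 and Tmem2 of the NFO list were found in under 25% of NFO barcodes of each library. Without injury Enpp6 was higher in oligodendrocytes (524 CPM) than in NFOs (404 CPM), and Itpr2 higher in OPCs (414 CPM) than in NFOs (266 CPM). The other list genes were highest in NFOs, and after ONC all but Tmem2 were. The authors set the types from expression in these same cells, so differences between stages are given as descriptions.

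At the paranode, the loops at the end of each myelin segment are joined to the axon by a septate-like junction. Its glial part is the neurofascin isoform NF155, which binds a complex of contactin 1 and Caspr (Cntnap1) on the axon. Next to it, at the juxtaparanode, contactin 2 (TAG-1) sits in both the glial and the axonal membrane, and along the internode the Cadm (nectin-like) proteins hold the myelin sheath and the axon together. Protein 4.1B (Epb41l3) and the ankyrins, here ankyrin-B (Ank2), tie such membrane proteins to the spectrin cytoskeleton. Jam3 is a junctional adhesion molecule and Ncam1 the neural cell adhesion molecule. Several of these genes are also used by neurons, whose bodies do not lie in the nerve. The 6 neuronal markers checked summed to 0 UMIs in injured oligodendrocytes and to between 6.03 and 169 CPM in the other groups, highest in uninjured OPCs. There it was mostly Snap25 (26 UMIs), with 2 UMIs of Syt1, 1 of Nefm and 0 of Nefl, Stmn2 and Rbfox3. Cntnap1, the axonal partner, had 1 UMI in uninjured oligodendrocytes and 0 in the other 5 groups of stage and condition, where a count of 0, read as fewer than 3 UMIs, allows a level of up to 1.3 CPM in injured oligodendrocytes and up to 31.9 CPM in uninjured NFOs.

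The contactins lie on different chromosomes, Cntn1 (ENSMUSG00000055022) at chr15:92051165-92341967 on the plus strand and Cntn2 (ENSMUSG00000053024) at chr1:132509427-132543256 on the minus strand (GRCm38, GENCODE vM21). Nfasc (ENSMUSG00000026442; chr1:132564690-132741797, minus strand) is the neighbour of Cntn2, 21433 bases away with no annotated gene between them. Of the internodal genes, Cadm4 (ENSMUSG00000054793) lies at chr7:24482023-24504539 on the plus strand, and 3 of the 9 genes lie on chromosome 9, Cadm1 (ENSMUSG00000032076) at chr9:47530173-47857637 on the plus strand, Jam3 (ENSMUSG00000031990) at chr9:27097384-27155421 and Ncam1 (ENSMUSG00000039542) at chr9:49502136-49798925, both on the minus strand. Epb41l3 (ENSMUSG00000024044) lies at chr17:69075683-69289989 on the plus strand and Ank2 (ENSMUSG00000032826) at chr3:126921612-127499350 on the minus strand. The bases directly before a RefSeq start of the contactin genes and of Cadm4 are shown because Cntn1 and Cntn2 have opposite stage patterns and Cadm4 is found at each stage. They are of the build GRCm38.p6, are 88 bases long, hold no annotated exon of the gene and have their CpG dinucleotides in capitals. For Cntn2 the RefSeq start lies inside the GENCODE gene, so that its window is intronic to the longest GENCODE span. For Cntn1 and Cadm4 the starts are the same in both.
Cntn1 (chr15:92051077-92051164, plus strand): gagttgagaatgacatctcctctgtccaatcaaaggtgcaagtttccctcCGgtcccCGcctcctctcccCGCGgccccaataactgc
Cntn2 (chr1:132542941-132543028, minus strand): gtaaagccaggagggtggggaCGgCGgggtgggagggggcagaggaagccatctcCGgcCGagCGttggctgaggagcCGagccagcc
Cadm4 (chr7:24481935-24482022, plus strand): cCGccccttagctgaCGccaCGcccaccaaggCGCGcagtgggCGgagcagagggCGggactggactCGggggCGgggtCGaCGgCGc
Cadm4 has 12 CpGs in this window, more than 91.3% of the 32851 promoters of the table, whose median is 2. Cntn2 has 6 and Cntn1 4, more than 68.4% and 58.2% of promoters. The table held 14 promoters for 6 of the genes, without Cadm1, Jam3 and Ncam1. In windows from 250 bases before to 50 after the start, the letters CTGGCAC or CTGGTAC, a motif of the myelin factor MYRF, were searched on both strands and matched in 0 of these 14 and in 7.10% of all promoters. The letters ACAAAG or ACAATG, bound by SOX factors, matched in 5 of the 14 and in 28.6% of all promoters, and the E-box CAGCTG in 4 of the 14 and in 16.3%. A match is only a description of the letters, and the absence of one says nothing of the factor.

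Cntn1, the contactin best known from axons, was the gene of the precursors. In the uninjured nerve it stood at 1658 CPM in OPCs (284 UMIs), 531 in NFOs (50 UMIs) and 5.06 in oligodendrocytes (21 UMIs). After ONC the levels were 1199 CPM in OPCs (141 UMIs), 173 in NFOs (61 UMIs) and 3.04 in oligodendrocytes (7 UMIs). The order from OPCs down to oligodendrocytes was the same in both libraries, and the 2 oligodendrocyte groups were the only neighbours in it whose difference lay within counting error. Between uninjured OPCs and oligodendrocytes the CPM differed 328-fold (interval 210 to 537). The few UMIs in oligodendrocytes, 21 and 7, were above the 9.29 and 3.74 that free OPC RNA would give if all of their Pdgfra, the OPC receptor for PDGF, came from it. After ONC this rests on 3 Pdgfra UMIs, and 4 Cntn1 UMIs were left without the top barcode. It also depends on the marker. Uninjured oligodendrocytes and OPCs held 13 and 92 UMIs of Gpr17, a scale that the 21 would not exceed, and 22 and 527 of Ptprz1, one that they would.

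Cntn2, the juxtaparanodal contactin, had the opposite pattern. Uninjured OPCs held 1 Cntn2 UMI (5.84 CPM), NFOs 2 (21.3 CPM) and oligodendrocytes 2428 (585 CPM). Injured OPCs held 3 UMIs (25.5 CPM), NFOs 12 (34.1 CPM) and oligodendrocytes 1185 (515 CPM). The oligodendrocytes of both libraries stood apart from the other 4 groups, among which no neighbours in the order differed beyond counting error. In injured NFOs 10 of the 12 UMIs came from 1 barcode, and without the 3 NFO barcodes called doublets 2 UMIs were left (5.85 CPM). Because 1 to 3 UMIs lie behind the OPC levels, the ratio of oligodendrocytes to OPCs is loosely known, 100 without injury (18.0 to 3961) and 20.2 after it (6.89 to 98.0). The single UMI in uninjured OPCs is no more than the 1.3 that free oligodendrocyte RNA would give on the scale of Mag, a myelin glycoprotein gene with 9 UMIs in the same OPCs and 16777 in oligodendrocytes.

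Barcode by barcode, the contactins were seldom found together. Of the 857 uninjured oligodendrocyte barcodes, 651 had a UMI of Cntn2 alone, 13 of both, 4 of Cntn1 alone and 189 of neither. Cntn2 was found in 77.5% of these barcodes and in 13 of the 17 with Cntn1. The counts thus differ by stage and do not show that the genes avoid each other within this stage. Of the 58 uninjured OPC barcodes, 48 had Cntn1 alone, 0 had both and 1 had Cntn2 alone. Cntn1 alone was also the commoner state in NFOs, with 22 of 44 barcodes without injury and 26 of 100 after it, against 1 with Cntn2 alone in each library. Injured OPCs were the group with the largest share of barcodes holding both, 3 of 17, and all 3 of these had at least 8000 UMIs. After ONC, 142 of 293 oligodendrocyte barcodes had Cntn2 alone, 2 both, 3 Cntn1 alone and 146 neither. Thinned to 500 UMIs each, 580 of 838 uninjured (69.2%) and 241 of 293 injured (82.3%) oligodendrocyte barcodes had neither, and Cntn2 was found in 30.3% (27.2 to 33.6) and 16.7% (12.6 to 21.5). Among barcodes of at least 8000 UMIs, 1 of 203 uninjured and 0 of 84 injured oligodendrocytes had neither contactin, and Cntn2 alone was found in 97.0% and 97.6%.

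**Figure D1:**
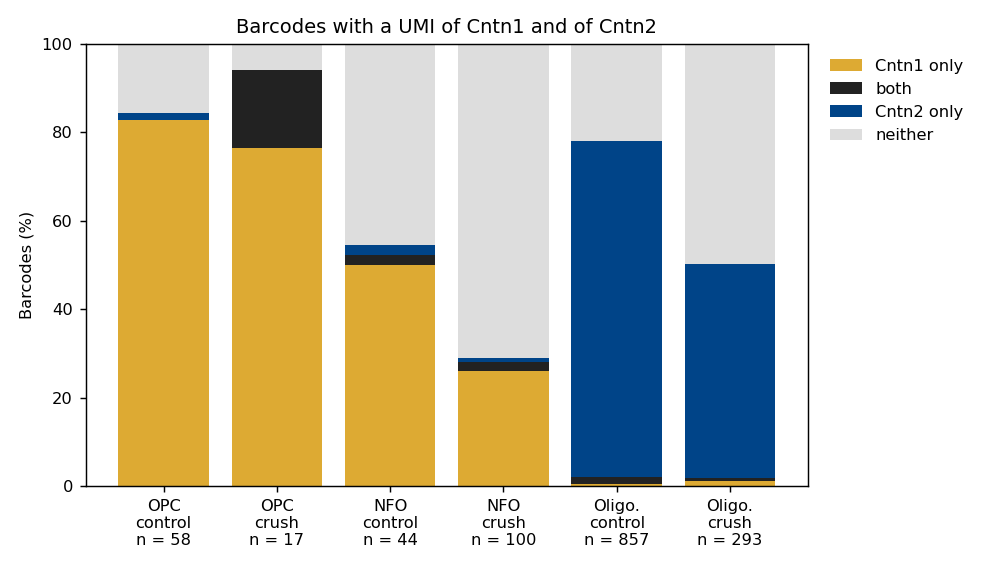
Share of barcodes (%) with a UMI of Cntn1 only, of both contactins, of Cntn2 only and of neither, by stage (Oligo., oligodendrocytes) and condition, with the number of barcodes below each bar. OPC and NFO bars are mostly Cntn1 or neither and oligodendrocyte bars mostly Cntn2 or neither. Neither contactin is found in 49.8% of injured and 22.1% of uninjured oligodendrocyte barcodes.

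Nfasc was highest in NFOs after ONC, and in the uninjured library its rank rests on 1 barcode. Its levels were 117 CPM in OPCs, 807 in NFOs and 339 in oligodendrocytes without injury (20, 76 and 1407 UMIs). After ONC they were 196, 1216 and 402 CPM (23, 428 and 925 UMIs). With all barcodes, the NFO groups stood above the oligodendrocytes and the oligodendrocytes above the OPCs, while the 2 OPC groups did not differ beyond counting error. Against OPCs, Nfasc in NFOs was 6.92-fold higher without injury (4.18 to 12.0) and 6.22-fold higher after it (4.09 to 9.92). The uninjured NFO level rests on few barcodes, because 45 of its 76 UMIs came from 1 barcode and a UMI was found in 14 of 44. Without the top barcode of each group, uninjured NFOs stood at 344 CPM, level with oligodendrocytes (ratio 1.04, 0.702 to 1.48) and 3.60-fold above OPCs (1.91 to 7.06). After ONC 45 of 100 NFO barcodes held 428 UMIs, at most 55 in 1 barcode, and without the top barcodes they stood 3.11-fold above oligodendrocytes (2.74 to 3.51). The 10x 3′ reads do not separate the glial isoform NF155 from the neuronal isoform NF186.

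NFO barcodes with Nfasc more often had Mag, which the authors used for typing. A Mag UMI was found in 11 of 14 uninjured NFO barcodes with Nfasc (78.6%) and in 6 of 30 without it (20%). After ONC it was found in 32 of 45 with Nfasc (71.1%) and in 18 of 55 without it (32.7%). Barcodes with Nfasc were also deeper, with medians of 2358.5 against 1094 UMIs without injury and 2463 against 931 after it, so a UMI of any gene was more likely in them. Among the injured NFO barcodes of at least 2000 UMIs, Mag was found in 88.5% of the 26 with Nfasc and 40.0% of the 5 without, a group too small to compare.

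Cadm1, an internodal adhesion molecule, was a gene of OPCs and NFOs. It stood at 321 CPM in uninjured OPCs, 308 in NFOs and 65.1 in oligodendrocytes (55, 29 and 270 UMIs). After ONC the levels were 93.5, 341 and 26.9 CPM (11, 120 and 62 UMIs). Of the injured NFO UMIs 35 came from 1 barcode. Oligodendrocytes were lowest in both libraries, and injured OPCs lay near the uninjured oligodendrocytes, from which they did not differ beyond counting error. Cadm4, the family member known from the glial side of the internode, was found at 385, 425 and 292 CPM from OPCs to oligodendrocytes without injury (66, 40 and 1212 UMIs) and at 425, 608 and 398 CPM after it (50, 214 and 916 UMIs). No stage lacked it, and between its highest and lowest groups, injured NFOs and uninjured oligodendrocytes, no neighbours among the other 4 groups differed beyond counting error.

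Epb41l3 and Ank2, the cytoskeletal linkers, belonged with Cntn2 to the oligodendrocytes. Epb41l3 stood at 75.9 CPM in OPCs, 74.4 in NFOs and 603 in oligodendrocytes without injury (13, 7 and 2500 UMIs), and at 85.0, 17.1 and 534 CPM after it (10, 6 and 1229 UMIs). Ank2 stood at 158, 53.1 and 806 CPM without injury (27, 5 and 3344 UMIs) and at 68.0, 56.8 and 639 CPM after it (8, 20 and 1472 UMIs). For both genes the oligodendrocyte groups were far above the OPC and NFO groups, and NFOs were no higher than OPCs. If all Mobp UMIs of uninjured OPCs were free oligodendrocyte RNA, 29.4 UMIs of Epb41l3 and 39.3 of Ank2 would be expected there and 13 and 27 were found, so on that scale neither is above background. The same scale would bring 28.5 UMIs of Cntn2, of which 1 was found, so it overstates free RNA for at least that gene. On the scale of Mag the ceilings are 1.34 and 1.79 UMIs, and both genes exceed them. In injured OPCs both exceed the ceilings on either scale, with 10 Epb41l3 UMIs against at most 1.85 and 8 Ank2 UMIs against at most 2.22. Those ceilings are loosely known, since they rest on 7 Mobp UMIs, all from 1 of 17 barcodes, and on 6 Mag UMIs. Of the Ank2 UMIs 4 came from 1 barcode. Reads of genes inside Ank2 on the same strand, of which the annotation lists 14, were not separated from it here.

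Jam3 was also highest in oligodendrocytes without injury, at 436 CPM (1808 UMIs) against 287 in NFOs and 158 in OPCs (27 UMIs each). After ONC its levels were 128 CPM in OPCs, 207 in NFOs and 252 in oligodendrocytes (15, 73 and 580 UMIs). The 5 groups below uninjured oligodendrocytes formed a series in which no neighbours differed beyond counting error. Ncam1, in contrast, went down along the lineage, from 1056 CPM in OPCs to 776 in NFOs and 580 in oligodendrocytes without injury (181, 73 and 2408 UMIs) and from 655 to 625 and 487 CPM after it (77, 220 and 1121 UMIs). Some neighbours in this order did not differ beyond counting error, and a Ncam1 UMI was still found in 76.1% of oligodendrocyte barcodes without injury.

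**Figure D2:**
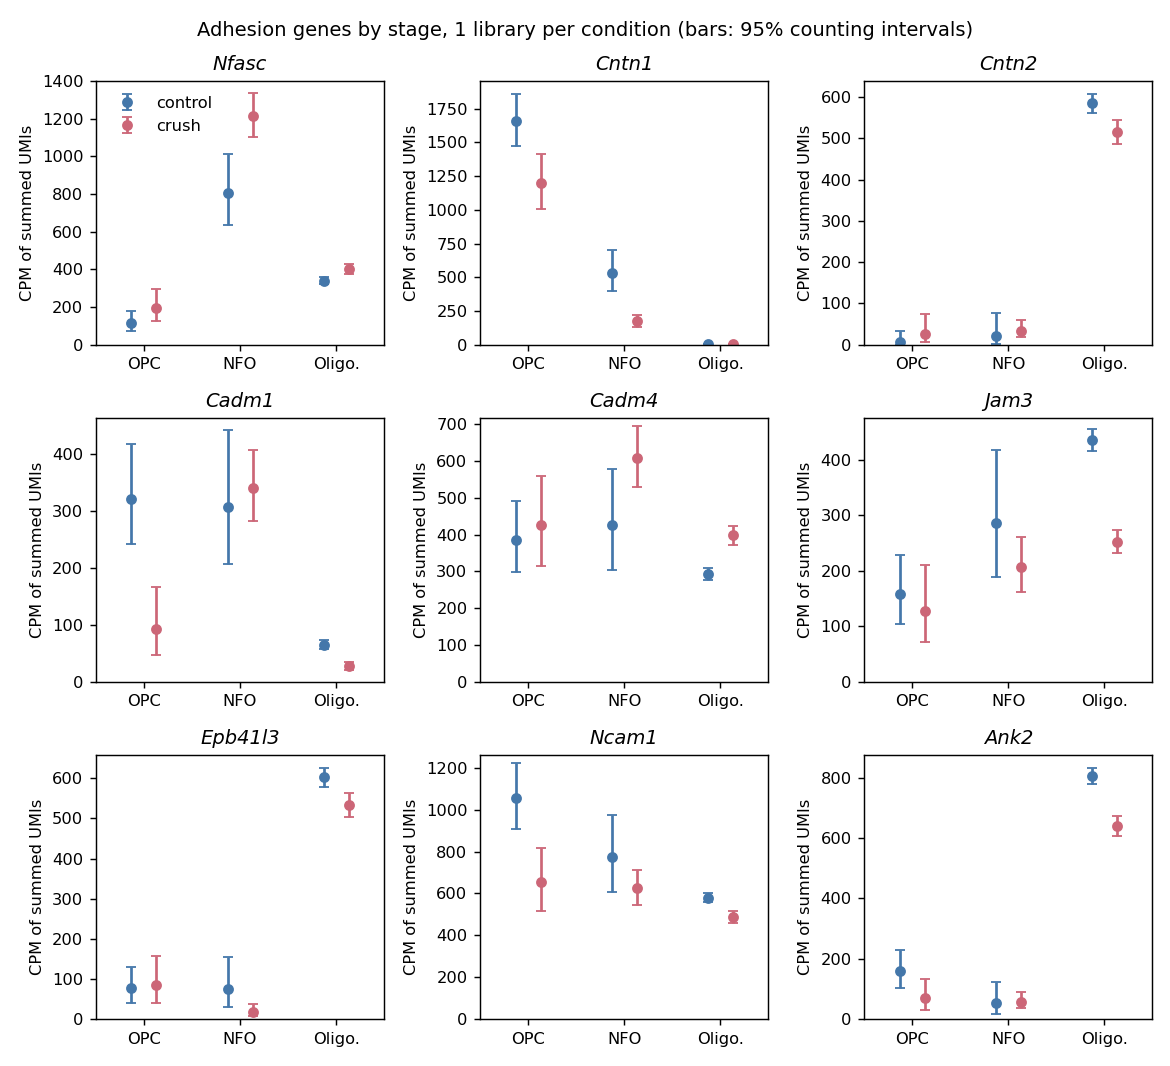
CPM of the summed UMIs (linear axis, different in each panel) of the 9 genes in OPCs, NFOs and oligodendrocytes (Oligo.) of the uninjured (control, blue) and injured (crush, red) libraries; bars are exact 95% Poisson intervals, which cover counting error only. Cntn1 goes down from OPCs, Nfasc is highest in NFOs (in the uninjured library through 1 barcode), and Cntn2, Epb41l3 and Ank2 stand far higher in oligodendrocytes than in the other stages.

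By a limit of 2-fold among genes with at least 50 UMIs over the groups compared, 5 of the 9 genes were higher in uninjured oligodendrocytes than in OPCs (Nfasc 2.91-fold, Jam3 2.77-fold, Epb41l3 7.94-fold, Ank2 5.11-fold and Cntn2) and 2 were lower (Cntn1 and Cadm1, the latter 4.93-fold). Over all 7803 genes, 19.9% were higher and 18.6% lower by the same rule. The median log2 ratio was 1.47 over the 9 genes and -0.14 over all genes with UMIs in both groups, which leaves out 269. Between uninjured NFOs and OPCs, 6 of the genes were above the limit on UMIs, of which Nfasc was higher and Cntn1 lower (3.12-fold), with 13.4% and 12.6% of 866 genes. After ONC, oligodendrocytes exceeded NFOs in Cntn2 (15.1-fold, with 10 of the 12 NFO UMIs in 1 barcode), Epb41l3 (31.3-fold) and Ank2 (11.3-fold) and were below them in Nfasc (3.03-fold), Cntn1 (57.0-fold) and Cadm1 (12.7-fold). That is 3 higher and 3 lower of 9, where 19.3% and 13.5% of 6560 genes passed.

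Stages in the injured nerve were then compared with the same stages in the uninjured nerve. In oligodendrocytes, 8 of the 9 genes had at least 50 UMIs, and the level of 7 of these lay within 2-fold of the uninjured level. Cadm1 was lower, at 26.9 against 65.1 CPM, a ratio of 0.414 (0.309 to 0.547). Over all 8588 genes, 4.06% were lower and 5.99% higher past 2-fold. Jam3 was next lowest, at 252 against 436 CPM, a ratio of 0.578 (0.526 to 0.635). The median log2 ratio was -0.22 over the 8 genes and 0.05 over all genes. Ratios of 0.793 for Ank2 (0.746 to 0.844), 0.839 for Ncam1 (0.781 to 0.901), 0.880 for Cntn2 (0.820 to 0.943) and 0.886 for Epb41l3 (0.827 to 0.949) were below 1 by more than counting error. Nfasc, at 1.19 (1.09 to 1.29), and Cadm4, at 1.36 (1.25 to 1.49), were above 1, but the picture differs when each barcode has equal weight. The log2 ratios of the mean CPM over barcodes were then -0.18 for Nfasc and -0.12 for Cadm4, below 0, and Jam3 (-1.53), Ank2 (-1.31) and Ncam1 (-1.15) joined Cadm1 (-1.05) past 2-fold. Thinned to 500 UMIs, the log2 ratios were -1.73 for Jam3, -1.62 for Ank2 and -1.16 for Ncam1. Cntn1 was under the limit, with 7 and 21 UMIs.

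The comparison was repeated in deep barcodes. Among oligodendrocyte barcodes of at least 8000 UMIs, 203 without injury and 84 after it, the levels of 4 genes were close to equal: Ank2 had a ratio of 1.005 (0.932 to 1.08), Epb41l3 of 0.995 (0.919 to 1.08), Ncam1 of 0.980 (0.900 to 1.07) and Cntn2 of 1.08 (0.986 to 1.18). Cadm1 was lower here too, at 26.0 against 74.7 CPM, a ratio of 0.348 (0.251 to 0.476), in a comparison in which 3.13% of 7628 genes were lower and 7.79% higher past 2-fold. Jam3 stood at 265 against 413 CPM (0.642, 0.577 to 0.714). Cadm4 was higher, at 418 against 277 CPM (1.51, 1.36 to 1.67), and Nfasc at 376 against 265 CPM (1.42, 1.28 to 1.58), of which 74 of 752 injured UMIs came from 1 barcode. This choice of depth was made after seeing the data, and the injured barcodes in it were still deeper (medians of 22473 and 11054 UMIs).

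Thinning these deep barcodes to 8000 UMIs each makes them equal in depth and weight. A Cadm1 UMI was then found in 77 of 203 uninjured barcodes (37.9%, exact binomial interval 31.2 to 44.99) and in 16 of 84 injured ones (19.0%, 11.3 to 29.1). The mean per barcode was 3.38 Jam3 UMIs without injury and 2.20 after it, 2.12 and 3.48 of Cadm4, and 2.18 and 3.05 of Nfasc. For Ank2 it was 5.34 and 5.07, for Epb41l3 4.59 and 4.51, for Ncam1 4.09 and 4.07 and for Cntn2 3.30 and 3.64. Most of these barcodes held nearly the whole set, with a median of 7 of the 9 genes in each library, and 155 of 203 uninjured (76.4%) and 56 of 84 injured barcodes (66.7%) had at least 7.

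**Figure D3:**
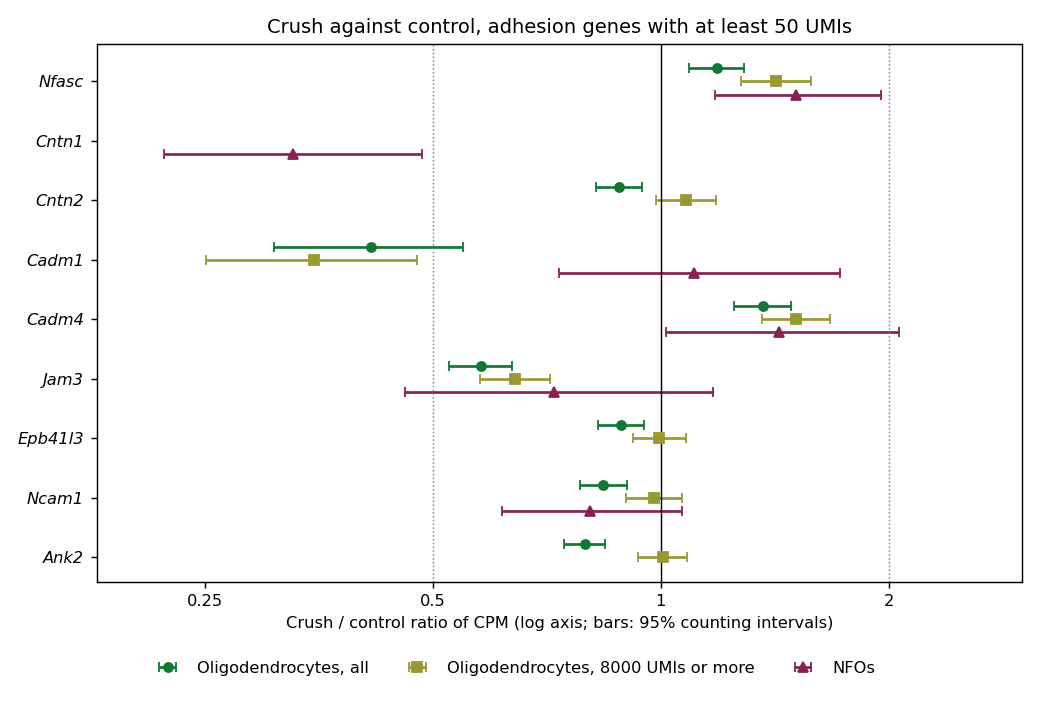
Ratio of injured (crush) to uninjured (control) CPM on a log axis for genes with at least 50 UMIs over both groups, in all oligodendrocytes (circles), in oligodendrocytes of at least 8000 UMIs (squares) and in NFOs (triangles); bars are exact 95% counting intervals and dotted lines mark 2-fold. Cadm1 in oligodendrocytes and Cntn1 in NFOs lie past 2-fold, and Ank2, Epb41l3, Ncam1 and Cntn2 sit near 1 in deep oligodendrocytes.

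Among NFOs, 6 of the 9 genes had at least 50 UMIs. Cntn1 was lower after ONC, at 173 against 531 CPM, a ratio of 0.326 (0.221 to 0.484), with 4.01% of 1695 genes lower and 13.3% higher past 2-fold. Of uninjured NFO barcodes 23 of 44 (52.3%) had a Cntn1 UMI and of injured ones 28 of 100 (28.0%), at median depths of 1259.5 and 1258.5 UMIs. Thinned to 500 UMIs each, 13 of 42 and 12 of 100 had one. The OPC marker Pdgfra went the same way, with 202 CPM in uninjured and 42.6 CPM in injured NFOs. The rest of the OPC list was mixed. Lhfpl3 was higher after ONC, at 935 against 595 CPM, and the others were lower, Ptprz1 the least (776 against 903 CPM). Among NFO barcodes with a Pdgfra UMI, 10 without injury and 9 after it, Cntn1 stood at 571 (358 to 865) and 469 CPM (278 to 742). Among those without one, 34 and 91, it stood at 503 (335 to 728) and 137 CPM (99.3 to 185). The barcodes without a Pdgfra UMI had medians of 1185.5 and 1249 UMIs. At such depth a barcode can lack one through shallow sampling, so this split does not separate NFOs with Pdgfra RNA from those without it. The macrophage list summed to 21.3 CPM in uninjured NFOs, with 8 of its 10 genes at 0, and to 605 CPM in injured ones. The astrocyte list stood at 404 and 364 CPM, but its member Gfap at 21.3 and 259 CPM. The part of OPC, macrophage or astrocyte RNA in the NFO ratios was not tested.

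For Nfasc the NFO ratio was 1.51 (1.18 to 1.95), or 0.59 on the log2 scale, and the log2 ratio was 1.75 when the barcode with most Nfasc UMIs was left out of each library. Cadm4 had a ratio of 1.43 (1.02 to 2.06), Cadm1 of 1.11 (0.733 to 1.72), Jam3 of 0.723 (0.459 to 1.17) and Ncam1 of 0.806 (0.616 to 1.07). The last 3 intervals span 1. Cntn2, Epb41l3 and Ank2 were under the limit, with 12 and 2, 6 and 7, and 20 and 5 UMIs after and without injury. The median log2 ratio was -0.08 over the 6 genes and 0.20 over all genes. Of OPCs after ONC there were 17 barcodes, and 4 of the 9 genes had at least 50 UMIs. Cadm1 was again lower, at 93.5 against 321 CPM, a ratio of 0.291 (0.138 to 0.563), as were 6.35% of 992 genes past 2-fold, with 10.3% higher. Cntn1 had a ratio of 0.723 (0.587 to 0.888), Ncam1 of 0.620 (0.468 to 0.814) and Cadm4 of 1.10 (0.749 to 1.62).

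Oligodendrocyte barcodes poor in Malat1 held less of most of these genes. In the injured library 133 barcodes with under 0.5% Malat1 had a median of 774 UMIs, and the other 160 a median of 9803.5. Ank2 stood at 93.6 CPM in the former and 672 in the latter, a 7.17-fold difference (4.09 to 13.9). Ncam1 stood at 85.8 and 511 CPM (5.95-fold), Cntn2 at 172 and 535 (3.12-fold), Jam3 at 93.6 and 261 (2.79-fold) and Cadm4 at 187 and 410 CPM (2.19-fold). Cadm1 had 1 UMI in the poor barcodes and 61 in the others, and the interval of its ratio (0.278, 0.00693 to 1.61) spans 1. Nfasc (242 and 411 CPM) and Epb41l3 (359 and 544 CPM) were within 2-fold. The 6 of 8 genes past 2-fold, Cadm1 included, are to be read against 47.5% of 5966 genes lower and 3.39% higher. The median log2 ratio was -1.56 for the 8 genes and -0.82 for all genes with UMIs in both groups. That leaves out 466 genes with 0 UMIs in a group, so -0.82 is not the median of all 5966 and the 2 medians are not strictly alike. In the uninjured library, 48 barcodes were as poor in Malat1, and Ank2 was again low in them, at 114 against 818 CPM. The other genes that were lower past 2-fold in the Malat1-poor barcodes of the injured library were within 2-fold here. Cntn2 stood at 385 against 589 CPM, Ncam1 at 342 against 584, Jam3 at 228 against 439 and Cadm4 at 242 against 293. Cadm1 was at 85.6 against 64.7 CPM there, from 6 UMIs in the poor barcodes.

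Macrophage RNA differed along this split in the opposite direction, being higher in the Malat1-poor barcodes of the injured library. The 10 macrophage and microglia markers summed to 26.0 CPM in uninjured and 262 CPM in injured oligodendrocytes, with 161 CPM in injured barcodes of at least 0.5% Malat1 and 1966 CPM in those below. The 5th to 95th percentile over barcodes was 0 to 132 CPM without injury and 0 to 7824 CPM after it. Its part in the results was not tested. With the Malat1-poor barcodes left out, Cadm1 was still past 2-fold, with a ratio of 0.434 (0.323 to 0.575), where 3.84% of 8548 genes were lower and 6.19% higher. The 8 Schwann cell markers summed to 104 CPM in uninjured and 59.5 CPM in injured oligodendrocytes, where 4 of them, the myelin genes Prx and Pmp2 among these, were at 0 UMIs.

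**Figure D4:**
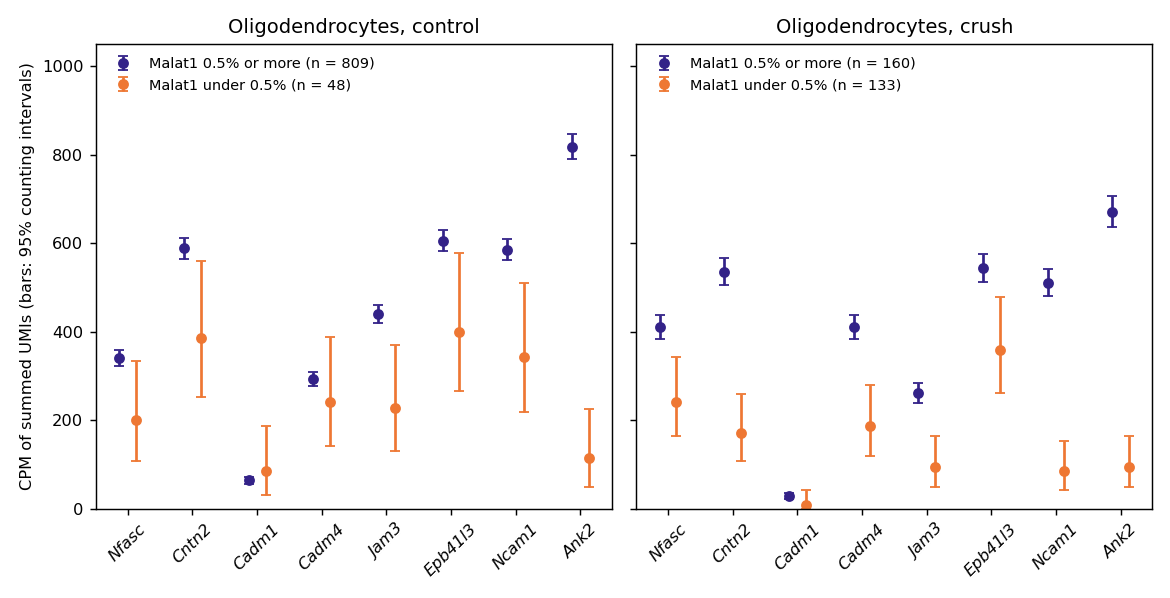
CPM of 8 genes in oligodendrocyte barcodes with at least 0.5% (dark) and under 0.5% (orange) of their UMIs from Malat1, in the uninjured (control) and injured (crush) libraries, with exact 95% counting intervals; Cntn1, with 28 UMIs in all, is left out. Ank2 is low in the Malat1-poor barcodes of both libraries (114 and 93.6 CPM), and Nfasc and Epb41l3 differ least after injury.

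Other axon-glia genes were read from a list of 46 that includes further contactins, Cadm and Jam members, cadherins, nectins, ankyrins, spectrins and polarity scaffolds. Mag and Fyn in it were used by the authors for typing. In oligodendrocytes 28 had at least 50 UMIs, of which 2 were higher and 3 lower after ONC past 2-fold, against 5.99% and 4.06% of all genes. The higher were Nrcam, a cell adhesion molecule of the node that binds neurofascin, and Itgb1, the integrin β1 chain. Nrcam had 14 UMIs in 13 of 857 uninjured barcodes (3.37 CPM) and 95 UMIs in 37 of 293 injured barcodes (41.3 CPM), a ratio of 12.2 (6.94 to 23.2). It passed the limit on UMIs through the injured group. In NFOs it stood at 319 and 341 CPM and in OPCs at 339 and 468, so oligodendrocytes were below the earlier stages in both libraries. Among oligodendrocyte barcodes of at least 8000 UMIs, 7 of 203 uninjured and 29 of 84 injured ones had Nrcam. Itgb1 stood at 98.8 and 262 CPM (2.65, 2.33 to 3.01). In these deep barcodes 5 of 27 genes of the list were higher and 3 lower after ONC, against 7.79% and 3.13% of all genes.

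The lower genes were Omg, the oligodendrocyte-myelin glycoprotein, at 160 and 51.7 CPM (0.324, 0.264 to 0.394), Alcam at 93.03 and 31.7 CPM (0.341, 0.262 to 0.439) and Nectin1 at 94.2 and 40.4 CPM (0.429, 0.338 to 0.539). Cdh19, a cadherin that is also on the Schwann cell list, followed within the limit at 0.514. At the other end, Cntn3 had a ratio of 1.71 and Sptbn1, a spectrin β chain, of 1.70. In NFOs 15 of the 46 were above the limit on UMIs, and 7 were higher and 0 lower after ONC, against 13.3% and 4.01% of all genes. The best counted were Cldn11, with 679 UMIs against 47 (3.87-fold, 2.87 to 5.31), Itgb1, with 260 against 15 (4.64-fold, 2.76 to 8.41), and Tmem108, with 230 against 24 (2.56-fold, 1.68 to 4.08). Opalin had 150 against 9 UMIs (4.46-fold, 2.29 to 9.94) and Sptbn1 125 against 15 (2.23-fold, 1.301 to 4.10). Jam2, with 73 against 6 UMIs (3.26-fold, 1.43 to 9.16), and Sptan1, with 48 against 2 (6.42-fold, 1.68 to 54.5), are loosely known. All 7 had under 50 UMIs in uninjured NFOs and passed the limit on UMIs through the injured group. Injured NFOs held 351851 UMIs in all against 94130, so the limit favours genes that are higher after ONC, and the count of 7 is to be read with that. Opalin and Cldn11 encode oligodendrocyte myelin proteins, and Jam2 a partner of Jam3. Along the lineage, 6 of 27 were higher and 11 lower in uninjured oligodendrocytes than in OPCs (19.9% and 18.6% of all genes). In uninjured NFOs against OPCs, 4 of 12 were higher and 1 lower (13.4% and 12.6% of all genes). In injured oligodendrocytes against NFOs, 9 of 28 were higher and 12 lower (19.3% and 13.5% of all genes).

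As to which genes had the most similar patterns, log2(CPM + 10) over the 6 groups of stage and condition was correlated with that of 5318 genes. With 6 points that share libraries, many genes come close to 1, and the values are a description. Among the genes nearest to Ank2 were Jup and Slco3a1 (r = 0.993 for the latter). Epb41l3 was most like Inpp5f (0.999), then Prkacb and Slc20a2, and Cntn2 most like Adi1 (0.996), then Sh3bgrl3 and Dnajb2. Nearest to Cntn1 were Lrp1 (0.997), Ntrk2 and Laptm4a. Nearest to Ncam1 were Sdhd (0.990), Dgcr2 and B3gat1, an enzyme that makes the HNK-1 carbohydrate. Nfasc had Atxn7l3b (0.989), Scp2 and Gm16286 nearest to it, and Cadm1 had Dhrs7 (0.989), Abhd12 and Fh1. Cadm4 was most like Impa1 (0.976), Hdgfl2 and Akt1, and Jam3 most like Dusp7 (0.996), Xpa and Spns2. Among the 9 genes themselves, r was highest between Epb41l3 and Ank2 (0.923) and lowest between Cntn1 and Cntn2 (-0.97).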

How the data were processed

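Per the labels and the study's methods, the authors aligned and counted 10x Chromium reads with Cell Ranger 1.3 on mm10, kept cells with at least 200 genes, at most 20% mitochondrial reads and at most 150000 UMIs, drew equal cell numbers per library and typed the cells in Seurat 4.0.3. They deposited normalized expression, the natural log of 1 plus 10000 times a gene's UMIs over all UMIs of the barcode. The UMIs were recovered from these values as whole numbers (within 0.001) in 100% of barcodes. A table of both libraries together was not used here.

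UMIs were summed per type and library. Ratios of CPM have exact conditional 95% intervals, CPM exact Poisson and shares exact binomial ones, all for counting error only. No test was made, since each condition has 1 library. Genes with at least 50 UMIs over both groups were compared, and 2-fold in either direction was called. Medians over all genes leave out those without a UMI in either of the groups compared. The intervals and calls were tried on simulated Poisson counts, which follow the model that the intervals assume. They leave out the clumping of UMIs in single barcodes, so the trial does not show how the intervals hold under it. Rows whose symbol occurs more than once (4) were left out of the comparisons. Barcodes were not filtered for doublets in the main values. Scrublet called 7 of 959 uninjured and 4 of 410 injured barcodes.

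The genes, lists and tests were chosen with earlier results of these data known. All 9 genes are named, together with the 4 highest and 4 lowest ratios of the 46-gene list in oligodendrocytes and the 3 genes most like each, except for 1 that is not reported here. The other list genes named (Opalin, Cldn11, Jam2, Tmem108 and Sptan1) were chosen after their values were seen. Coordinates are from GENCODE vM21 (GRCm38). Python 3.11.15, numpy 2.4.6, pandas 2.3.3, scipy 1.17.1, scanpy 1.11.5 and matplotlib 3.10.9 were used.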

Additional observations from a re-analysis of the deposited data

How the results depend on the processing

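The alternatives were the mean CPM over barcodes, a median gene ratio of 1, a stricter barcode filter (500 genes or more, 10% mitochondrial UMIs or less), barcodes of at least 0.5% Malat1, thinning to 500 UMIs, no Scrublet doublets, omission of each gene's top barcode, minimums of 20 and 200 summed UMIs, a 1.5-fold limit and the difference of mean normalized expression. Barcodes of at least 8000 UMIs (oligodendrocytes) or 2000 UMIs (NFOs), and stage levels without top barcodes or doublets, were added after seeing the data. No call changed sides from higher to lower. In oligodendrocytes the number of genes lower after injury went from 1 to 4 with mean CPM over barcodes, to 4 with thinning (Cadm1, Jam3, Ncam1 and Ank2 in both) and to 2 at 1.5-fold. With mean CPM and with thinning, shallow barcodes count as much as deep ones, and Nfasc, Cadm4 and Cntn1 changed direction, as did Nfasc and Cadm4 in the difference of mean normalized expression. In NFOs the number higher went from 0 to 1 (Nfasc) under the stricter barcode filter, without the top barcode and at 1.5-fold, and the number lower from 1 to 0 at 200 summed UMIs, where Cntn1 was not compared. In injured oligodendrocytes against NFOs the number lower went from 3 to 1 at 200 summed UMIs, again because fewer genes were compared. Directions of Cntn2 and Ank2 in oligodendrocytes turned in barcodes of at least 8000 UMIs. In NFOs directions turned for Cadm1 and Jam3 with thinning (log2 ratios of -0.52 and 0.49), for Cntn2 without doublets (-1.94 from 0.68), and for Epb41l3 and Ank2 under the stricter barcode filter and at 2000 UMIs. Ratios near 1 or from few UMIs turned elsewhere too, Cadm1 under 6 alternatives in all. Depth limits Cntn2, Epb41l3 and Ank2 in OPCs and NFOs most, where 1 to 27 UMIs lie behind each level. No paired analysis was possible because each condition has 1 library.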
